A study of Drosophila melanogaster with 32 samples.

Results

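Edited adenosines were compared between Drosophila S2 cells that expressed Hrp48 joined to the wild-type catalytic domain of ADAR (Hrp48 TRIBE, the labels' Hrp48_TRIBE_s2, 2 libraries) and S2 cells that expressed the catalytic domain with the E488Q change and no RNA-binding protein (deaminase alone, the labels' E488Q_ADARcd_s2, 2 libraries). These 4 libraries were chosen by their sample titles, out of 32 samples in the series. S2 cells are a line of embryonic origin that resembles blood cells of the fly. In all 4 libraries the plasmid was transfected transiently, the construct was induced with CuSO4, the cells were sorted by FACS and poly(A) RNA was sequenced. Hrp48 HyperTRIBE, which joins Hrp48 to the E488Q domain (2 libraries), and FMRP HyperTRIBE replicate 1, which joins FMRP to that domain, were used only to ask where else a site was listed. The labels do not name separate cultures for the replicates, so p-values measure the spread between these libraries, which may be technical. The 2 groups differ both in the presence of Hrp48 and in the E488Q change, so the effects of these cannot be told apart.

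ADAR enzymes deaminate adenosine to inosine in double-stranded RNA, and sequencing reads inosine as guanosine. In TRIBE the double-stranded RNA-binding part of ADAR is replaced by an RNA-binding protein of interest, so that editing marks the transcripts which that protein binds. Hrp48, an hnRNP of the A/B family made from the gene Hrb27C, takes part in splicing and in the translational control of localized mRNAs. The E488Q change, numbered after human ADAR2, raises the activity of the catalytic domain, and the domain by itself serves to show editing that needs no fused RNA-binding protein.

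The wild-type domain carried by Hrp48 marked more transcripts than the more active domain by itself. Hrp48 TRIBE libraries listed 1252 and 1400 edited sites, in 743 and 911 genes, whereas deaminase-alone libraries listed 13 and 459 sites, in 14 and 282 genes. Both TRIBE libraries lay above both deaminase-alone libraries, but the deaminase-alone libraries differed from each other far more than the TRIBE libraries did. Genes per library averaged 827 ± 119 (SD, n = 2) with TRIBE and 148 ± 190 (SD, n = 2) with the deaminase alone, a 5.59-fold difference (exact permutation test on log10 numbers, two-sided, p = 0.3333, the smallest p that 2 libraries against 2 allow). For sites the fold was 5.62. Without deaminase-alone replicate 1 the fold for genes was 2.93, and without replicate 2 it was 59.1. Genes with at least 2 sites numbered 300 and 301 with TRIBE, against 0 and 81 with the deaminase alone. The files list a site only at 20 reads or more and 10% editing or more, so a missing site may have had few reads, little editing or none.

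**Figure D1:**
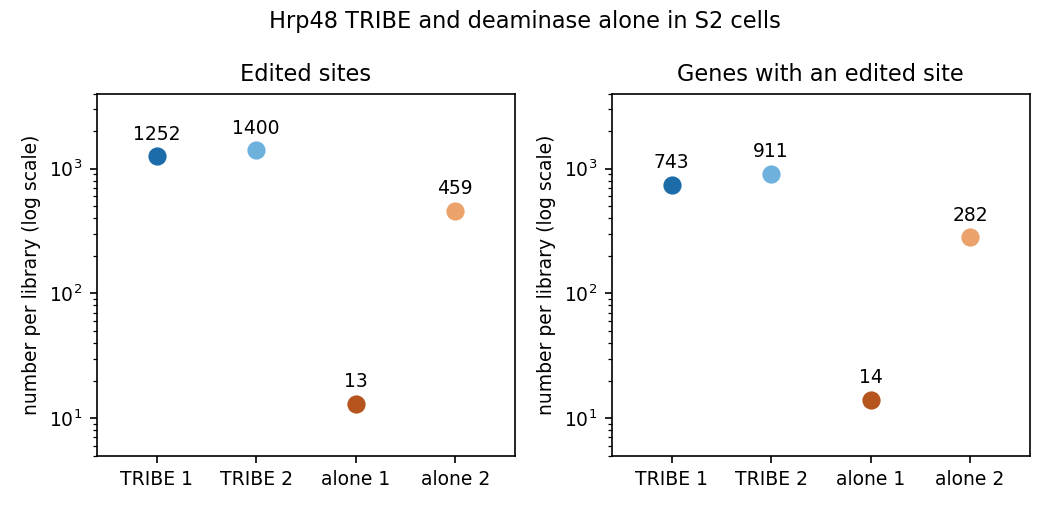
Edited sites (left) and genes with an edited site (right) listed in each library, on a log scale, with Hrp48 TRIBE replicates 1 and 2 followed by deaminase-alone replicates 1 and 2. Each point is 1 library. The TRIBE libraries sit close together at 1252 and 1400 sites, and the deaminase-alone libraries lie apart at 13 and 459.

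Listed sites held 41761 and 48849 reads in all in the TRIBE libraries, against 559 and 15602 in the deaminase-alone libraries, and the median was 27 and 29 reads per site with TRIBE and 33 and 27 with the deaminase alone. Median editing was 14.3% and 14.3% with TRIBE, against 16.7% and 14.3% with the deaminase alone. Editing stayed below 20% at 73.1% and 74.3% of TRIBE sites and at 69.2% and 77.8% of deaminase-alone sites. Since a site is listed only above the minimum of reads and editing, medians just above that minimum are found in any of these libraries and do not compare the constructs. Sites edited at 50% or more numbered 19 and 17 with TRIBE and 2 and 12 with the deaminase alone. Of these, 2 and 3 with TRIBE and 2 and 3 with the deaminase alone were edited at 90% or more. At sites that 2 libraries both listed, TRIBE replicate 1 had a median of 33.5 reads and deaminase-alone replicate 2 had 48 (42 sites), and TRIBE replicate 2 had 37 reads against 29 (53 sites). Deaminase-alone replicate 2 thus had the higher median in 1 of these comparisons and the lower in the other. Shared sites had to pass the minimum of reads in both libraries, so these medians do not show which library was deeper. TRIBE replicate 1 had 32 reads and deaminase-alone replicate 1 had 33 at 11 shared sites, and TRIBE replicate 2 had 50 reads against 33 at 9 sites. The file headers place each of the 4 libraries in a library set of its own (sets 02 and 03 for TRIBE, 04 and 06 for the deaminase alone), so the effect of a set cannot be told apart from that of the construct.

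In 310 of 1432 genes with a site in any of the 4 libraries, which is 21.6%, each TRIBE library listed more sites than each deaminase-alone library. In 0 genes (0%) was the order the other way. That count was fixed in advance, since deaminase-alone replicate 1 listed at most 1 site per gene and each was also a TRIBE site. Without deaminase-alone replicate 1, the order was TRIBE above in 312 genes (21.8%) and deaminase alone above in 160 (11.2%). The count with TRIBE above was 348 without deaminase-alone replicate 2, 833 without TRIBE replicate 1 and 687 without TRIBE replicate 2, where 1 TRIBE library sufficed. The 10 genes with the most TRIBE sites and none with the deaminase alone were ranked by their site counts, so those counts are a description. Unc-76, whose product links cargo to the kinesin motor, held 8 and 7 TRIBE sites. Sam-S, which encodes the enzyme that makes S-adenosylmethionine, held 6 and 6, and CG1673, listed in the current table as Bcat, a branched-chain amino acid transaminase, held 8 and 6. The genes of 3 transcription factors stood in this group. These were pnr, a GATA factor, with 8 and 5 TRIBE sites, ap, a LIM-homeodomain factor, with 9 and 4, and Stat92E, the fly STAT protein, with 8 and 4. Vha26, which encodes a subunit of the vacuolar proton pump, held 5 and 8, and CG11577 held 6 and 6. CG11537 (7 and 4) and CG10590 (5 and 4) completed the 10 genes. All of them also held sites in both Hrp48 HyperTRIBE libraries, between 7 in pnr and 38 in Sam-S. Most TRIBE genes did so. Hrp48 HyperTRIBE replicates 1 and 2 listed 94.6% and 94.9% of all genes of TRIBE replicate 1. They listed 96.2% and 97.8% of those of TRIBE replicate 2.

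These genes were ranked by the smaller of their TRIBE site counts, which favours genes with sites in both TRIBE libraries. Between 1 (CG10590) and 5 sites per gene were listed in both. Over all genes, TRIBE replicates 1 and 2 had 26.3% and 23.5% of their sites in common. In Sam-S 5 sites were listed in both, all in exons. The strongest (2L, 113686) was edited at 50% of 28 reads in TRIBE replicate 1 and 37.5% of 72 reads in replicate 2. A neighbouring site (2L, 113727) was at 45.2% and 34.7%. In CG1673 a row of adjacent adenosines was listed, with 26.1% and 19.6% at X, 13295072, 26.1% and 13.7% at 13295073 and 30.4% and 42.3% at 13295074. CG11577 had a similar row (3L, 19088518 to 19088520) with editing between 11.1% and 35.7%. In pnr 4 of the sites were in both TRIBE libraries, the highest (3R, 11866168) at 48.1% and 36.9%, and the 9 TRIBE positions of the gene spanned 98 bases. Unc-76 had 4 such sites, with 47.8% and 21.9% at X, 1986880. These genes were chosen for having no deaminase-alone site, so neither deaminase-alone library could list any of these positions.

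The 10 most edited of the reproducible TRIBE sites outside the deaminase-alone lists were selected for their TRIBE editing, with reproducible meaning listed in both TRIBE libraries. Cdep, which encodes a FERM-domain protein (3R, 770874), was edited at 68.0% and 61.4%. Stat92E (3R, 16361574) was at 63.3% and 44.1%, and Hrb98DE, an hnRNP A/B gene (3R, 24430599), at 45.5% and 61.0%. Below these came betaTub60D, a beta tubulin gene, at 44.4% and 58.5%, pes, which encodes a CD36-family scavenger receptor, at 55.6% and 42.0%, and Lam, which encodes a nuclear lamin, at 55.0% and 42.5%. Pvf2, a growth factor of the PDGF and VEGF type, was at 54.9% and 36.5%. The others were in CG11577 (64.5% and 33.3%), in the overlapping genes CG1146 and CG45186 (55.2% and 34.1%) and the Sam-S site given above. Each of these sites was also listed in both Hrp48 HyperTRIBE libraries, but in Pvf2 and Lam at a lower level there (27.3% and 30.2%, and 34.3% and 26.7%) than with TRIBE. Of all reproducible TRIBE sites outside the deaminase-alone lists, 90.2% were in both Hrp48 HyperTRIBE libraries.

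The genes with the most deaminase-alone sites owed them to replicate 2, and replicate 1 listed none in them. Arc1, which encodes a protein that forms capsids like those of retroviral Gag, held 0 and 0 sites with TRIBE and 0 and 12 with the deaminase alone. The highest of these sites (2R, 10246252) was edited at 74.2% of 66 reads, and another (2R, 10246206) at 47.8% of 69 reads, and the 12 positions spanned 750 bases. Neither position was listed in the Hrp48 or FMRP HyperTRIBE libraries, which listed 2, 4 and 4 other sites in the gene. The noncoding RNA gene pncr009:3L held 2 and 5 TRIBE sites and 0 and 12 deaminase-alone sites. CycG, which encodes cyclin G, held 2 and 9 against 0 and 10. In CycG 2 positions were listed with both constructs, at 18.9% in TRIBE replicate 2 and 34.3% in deaminase-alone replicate 2 (3R, 27423154), and at 17.9% and 31.0% (3R, 27423298). Lk6, whose kinase phosphorylates eIF4E, held 1 and 1 TRIBE sites and 0 and 9 deaminase-alone sites, with 0 positions in common. In 3 further genes, kst (a heavy beta spectrin), mbc (a Rac activator) and Bruce (an inhibitor of apoptosis), TRIBE listed 0 and 0 sites and the deaminase alone 0 and 9, 0 and 7, and 0 and 7. In sty, which encodes Sprouty, an antagonist of receptor tyrosine kinase signalling, TRIBE listed 0 and 2 sites and the deaminase alone 0 and 6. For mgl, which encodes the endocytic receptor megalin, the counts were 1 and 2 against 0 and 6, and for cv-2, which encodes a BMP-binding protein, 1 and 3 against 0 and 6. All of these counts rest on 1 deaminase-alone library. HyperTRIBE edited many of these genes too, as it did most genes of deaminase-alone replicate 2. Each Hrp48 HyperTRIBE library listed 95.4% of all genes of that replicate, and FMRP HyperTRIBE listed 79.8%. In the Hrp48 HyperTRIBE libraries and with FMRP, CycG had 35, 33 and 10 sites, Lk6 20, 18 and 15, cv-2 19, 21 and 2, and sty 11, 12 and 2. The counts were 11, 8 and 4 in pncr009:3L, 7, 13 and 6 in mgl, 4, 7 and 10 in Bruce, 2, 5 and 12 in kst and 0, 1 and 2 in mbc.

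Other strong sites of the deaminase alone that TRIBE did not list were in sqd, an hnRNP gene (63.6% of 22 reads), CalpB, a calpain gene (58.3% of 24 reads), and ex, a gene of the Hippo pathway (40.6% of 32 reads). A site in RpS27, a ribosomal protein gene, was edited at 41.5% of 106 reads. The RpS27 site was also listed with Hrp48 HyperTRIBE, at 33.3% and 37.2%, and with FMRP HyperTRIBE, at 24.2%. The sqd site was at 35.5% in Hrp48 HyperTRIBE replicate 1 and 44% with FMRP, the ex site at 13.95% and 17.6% with Hrp48 HyperTRIBE, and the CalpB site at 11.4% in its replicate 2. Sites in CG18522 (52.2% of 23 reads) and CG5850 (45% of 20 reads) were listed in no TRIBE, Hrp48 HyperTRIBE or FMRP HyperTRIBE library. TRIBE listed 0 and 0 sites in RpS27.

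**Figure D2:**
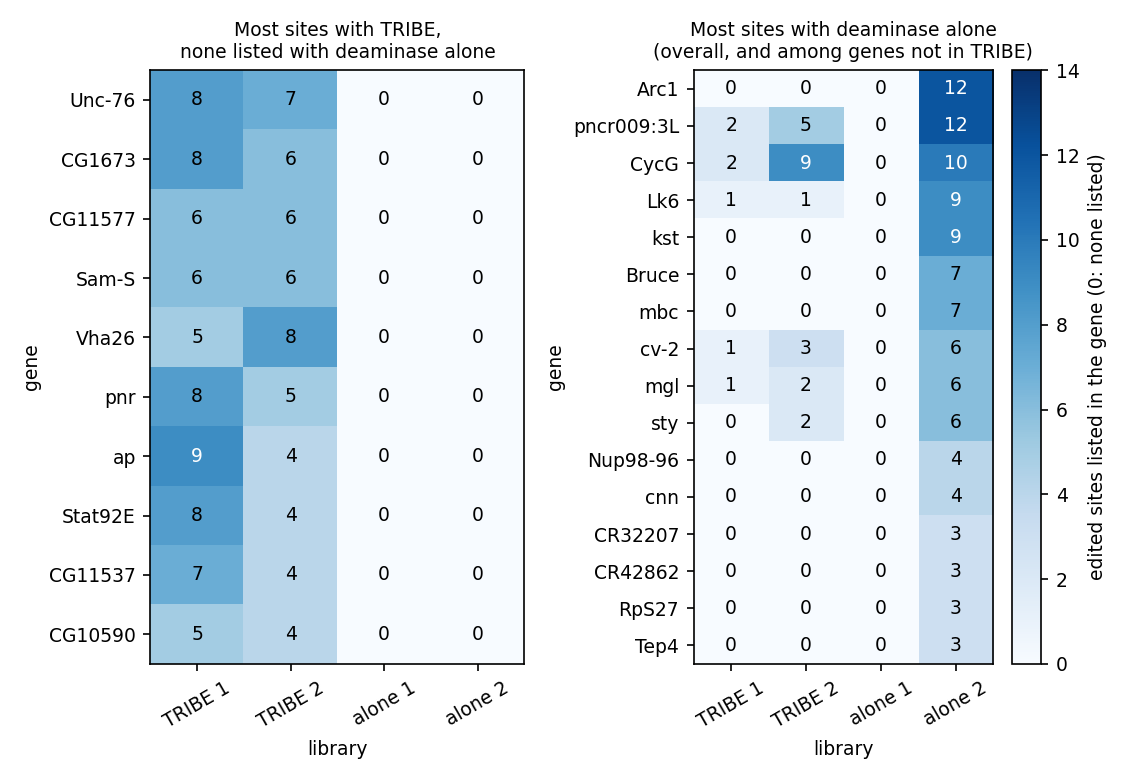
Number of edited sites listed in each gene (rows) and library (columns; TRIBE 1 and 2, then deaminase alone 1 and 2), for the 10 genes with the most TRIBE sites among those the deaminase alone did not list (left) and for genes with the most deaminase-alone sites (right). Darker cells hold more sites. Sites of the genes on the right come from deaminase-alone replicate 2, with 12 in Arc1 and in pncr009:3L, and replicate 1 lists 0 in each.

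The constructs shared a larger part of their genes than of their positions, as the TRIBE replicates did with each other. A shared position makes its gene shared, and a gene can be shared at differing positions, so this order does not describe the constructs. TRIBE replicates 1 and 2 had 47.8% and 39.0% of their genes in common, and 26.3% and 23.5% of their sites. Of 287 genes listed with the deaminase alone, 154 (53.7%, Wilson 95% interval 47.9 to 59.3%) were also listed with TRIBE, and these were 11.9% (10.2 to 13.7%) of the 1299 TRIBE genes. Of 464 deaminase-alone positions, 80 (17.2%, 14.1 to 20.9%) were TRIBE positions, and these were 3.44% (2.78 to 4.27%) of the 2323 TRIBE positions. Intervals cover counting error only. Of the 154 genes in common, 74 (48.1%) held an edited adenosine at the same position. Within these 154 genes, 80 of 275 deaminase-alone sites (29.1%) fell on a TRIBE position, and 130 of 279 (46.6%, counting a site once for each of its genes) lay within 100 bases of a TRIBE site. The median distance to the nearest TRIBE site of the gene was 133 bases over all 279, and 729 bases over the 195 that did not share a position.

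The deaminase-alone libraries differed in how their sites related to TRIBE. All 13 sites of replicate 1 (100%, 77.2 to 100%) were listed by a TRIBE library, 11 of them by TRIBE replicate 1 and 9 by TRIBE replicate 2. Of the 459 sites of replicate 2, 75 (16.3%, 13.2 to 19.999%) were. The 13 sites included those of Ef1alpha48D, polo, Atpalpha and Ubi-p63E, and those of CR40677 and CR41602, which read at least 95.2% in every library. They also included Nop60B, which encodes a pseudouridine synthase, at 17.2% in TRIBE replicate 1 and 11.6% in deaminase-alone replicate 1, Ubp64E, a ubiquitin protease gene, at 16.2% in TRIBE replicate 2 and 14.3% in deaminase-alone replicate 1, and ade5, a purine synthesis gene, at 12% in TRIBE replicate 1 and 11.1% in deaminase-alone replicate 1. Among the reproducible TRIBE sites, 22 of 329 (6.69%, 4.46 to 9.92%) were listed with the deaminase alone, and 2.13% without replicate 2.

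At 25 positions listed in at least 3 of the 4 libraries and with both constructs, editing was compared on the log2 odds of editing with limma, adjusted over the 25 sites (Benjamini-Hochberg). Editing was higher with TRIBE at 2 of the 25 sites, 8% of those tested, and lower at 0. Both lie in genes of SR proteins, which act in splicing. In SF2 (3R, 12166050, exonic) editing was 47.2% and 61.9% with TRIBE, against 14.6% in deaminase-alone replicate 2, on 36, 42 and 48 reads. The difference was 2.73 ± 0.79 log2 odds (SE; limma adjusted p = 0.0231). In SC35 (2L, 12432188, exonic) editing was 54.8% and 52.7% with TRIBE, against 14.3% in deaminase-alone replicate 2, a difference of 2.71 ± 0.79 log2 odds (limma adjusted p = 0.0231). Replicate 1 of the deaminase alone listed neither site, so each rests on 1 deaminase-alone library, and the standard error was pooled over all tested sites. Without deaminase-alone replicate 1, 20 sites could be fitted and 6 passed (4 higher with TRIBE, 2 lower). Without TRIBE replicate 1, TRIBE replicate 2 or deaminase-alone replicate 2 the SF2 and SC35 sites could not be fitted, and 0 of 6, 2 of 7 and 0 of 7 other sites passed. When 80 sites with 1 library of each construct were tested, both sites had a limma adjusted p of 0.0739. The SF2 gene held another shared site (3R, 12165967) at 16% and 13.2% with TRIBE and 14.6% with the deaminase alone, a difference of 0.02 ± 0.79 log2 odds. These 2 sites of a single gene, 83 bases apart, thus had the same level in deaminase-alone replicate 2 and different levels with TRIBE. The difference between the sites was not tested.

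Other sites leaned either way without passing the test. PI31, which encodes a proteasome regulator, was edited at 30.8% and 38.1% with TRIBE and at 10% in deaminase-alone replicate 2 (limma adjusted p = 0.057). The mitotic kinase gene polo was at 38.5% and 34.0% with TRIBE and at 15.2% in deaminase-alone replicate 1 (limma adjusted p = 0.156). Karl, a lipocalin gene, was at 31.9% and 27.0% with TRIBE against 11.5% (limma adjusted p = 0.147). In the other direction, CG1882 was at 33.3% and 16.7% with TRIBE against 60.7% in deaminase-alone replicate 2 (limma adjusted p = 0.055). Socs36E, which encodes an inhibitor of JAK/STAT signalling, was at 16.4% and 12.3% against 42.3% (limma adjusted p = 0.057). At the 25 sites together the estimate was higher with TRIBE at 13, and the median difference was 0.02 log2 odds. The median depended on which sites were fitted. It was 1.12 over the 11 sites of at least 30 reads, 1.28 over the 7 sites fitted without deaminase-alone replicate 2, and -0.08 over the 20 fitted without replicate 1. At an unadjusted p under 0.05, 6 sites were higher with TRIBE and 2 lower. The libraries of the constructs did not overlap at 15 sites, with TRIBE above at 10 (40%) and below at 5 (20%). Only 5 of the 25 sites were listed in all 4 libraries. At the others 1 library stood against 2, which often separate by order alone, so these counts are a description.

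At several sites the editing levels of the constructs lay close together. Ef1alpha48D, which encodes translation elongation factor 1 alpha (2R, 7782933), was at 22.8% and 16.2% with TRIBE and 20.4% and 25.6% with the deaminase alone, on 101 to 117 reads. Ubi-p63E (3L, 3901658), which encodes polyubiquitin, showed 29.1% and 22.4% with TRIBE and 25% and 27.1% with the deaminase alone. RpL4, a ribosomal protein gene, was at 17.7% and 16.5% with TRIBE and 17.9% in deaminase-alone replicate 2. The groups overlapped in Ef1alpha48D and Ubi-p63E, and in RpL4 the deaminase-alone value lay just above both TRIBE values. The limma estimates of -0.31, -0.04 and -0.08 log2 odds had standard errors of 0.65, 0.65 and 0.79. At the Ef1alpha48D and RpL4 sites Hrp48 HyperTRIBE reached 63.7% and 62.1%, and 51.9% and 56.7%. In Atpalpha, the sodium pump alpha subunit gene (3R, 16790761), TRIBE gave 54.5% and 33.9% and the deaminase alone 18.2% and 35.3%, so the groups overlapped. CG11811 was at 62.96% in TRIBE replicate 2 and at 13.04% and 56.5% with the deaminase alone. CR40677 and CR41602, whose current symbols mark them as ribosomal RNA pseudogenes, read 100% and 100%, and 100% and 99.1%, with TRIBE, and 96.6% and 95.2%, and 100% and 100%, with the deaminase alone. Sites at that level in every library were not told apart from fixed base differences here.

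**Figure D3:**
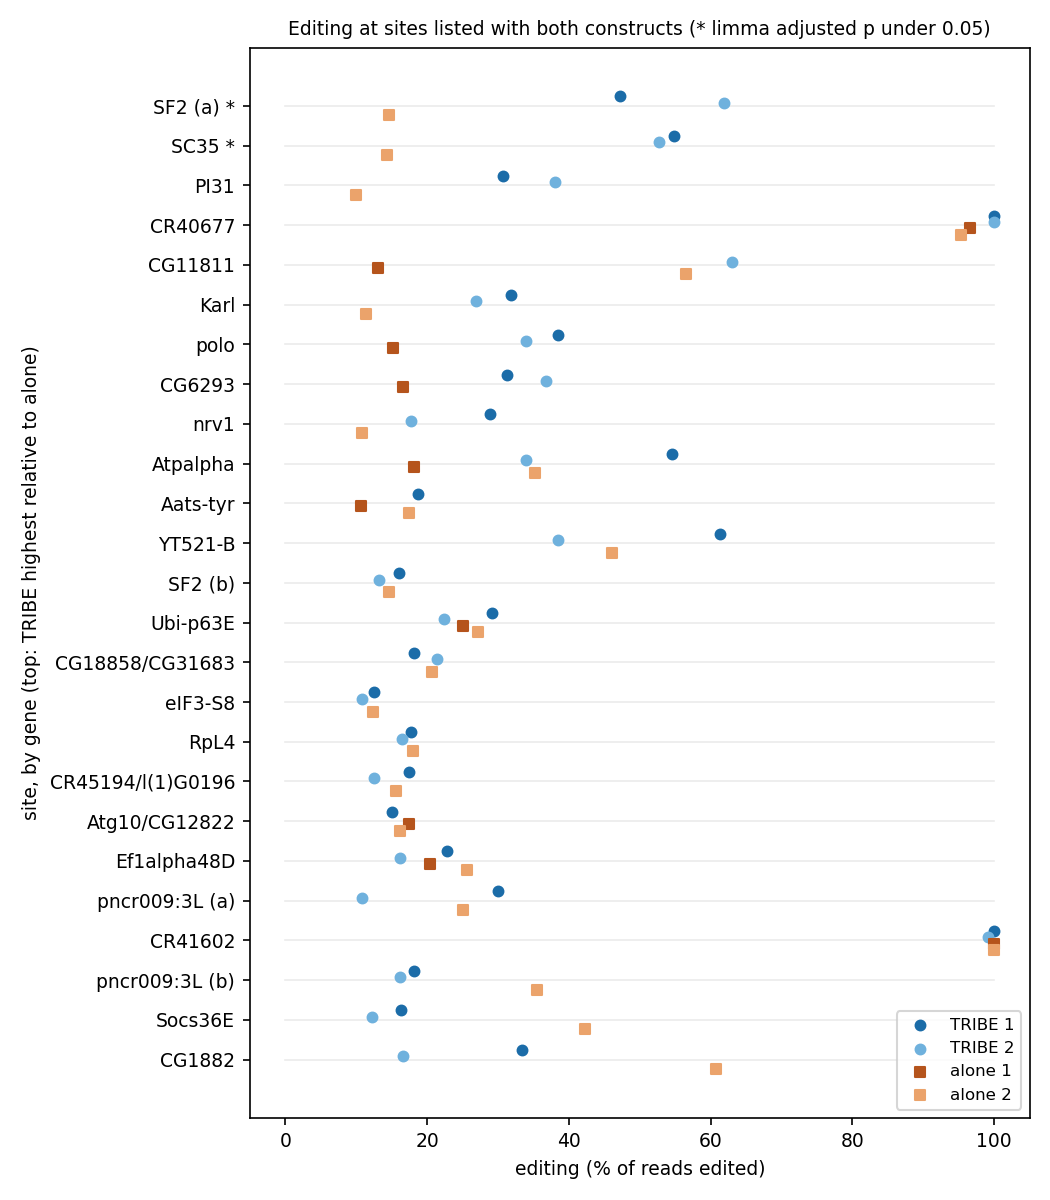
Editing in percent of reads at the 25 sites tested, by gene, with TRIBE libraries as blue circles drawn above the deaminase-alone libraries as orange squares on each row, and rows ordered by the TRIBE minus deaminase-alone difference in log2 odds. SF2 and SC35, at the top, have TRIBE values between 47.2% and 61.9% and deaminase-alone values of 14.6% and 14.3%, while CG1882 and Socs36E, at the bottom, have their deaminase-alone value above both TRIBE values.

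The Hrp48 HyperTRIBE libraries listed sites of TRIBE more often than sites of deaminase-alone replicate 2, and FMRP HyperTRIBE did not. Both Hrp48 HyperTRIBE libraries listed 60.4% (57.6 to 63.1%) and 66.9% (64.4 to 69.3%) of the TRIBE sites, against 76.9% (49.7 to 91.8%) and 30.9% (26.9 to 35.3%) of the deaminase-alone sites, where the first share is 10 of 13 sites. Among sites of at least 30 reads the shares were 68.8% and 79.8% with TRIBE and 75% and 40.1% with the deaminase alone, and among sites edited at 20% or more they were 85.8% and 86.7%, against 100% (4 of 4 sites) and 53.9%. Replicate 2 of the deaminase alone thus lay below both TRIBE libraries in all 3 counts, and replicate 1 in none. The 4 sites of replicate 1 edited at 20% or more include those of CR40677 and CR41602. These read at least 95.2% in every library and were not told apart from fixed base differences. FMRP HyperTRIBE, with the same E488Q domain on another protein, listed 21.4% and 26.2% of TRIBE sites, against 76.9% and 25.7% of deaminase-alone sites. Among sites edited at 20% or more these shares were 36.5% and 40% with TRIBE and 100% and 47.1% with the deaminase alone, so replicate 2 then lay above both TRIBE libraries. Reproducible TRIBE sites that no deaminase-alone library listed were in both Hrp48 HyperTRIBE libraries at 277 of 307 positions (90.2%, 86.4 to 93.1%), with a median editing of 32.7% and 33.3% there. Deaminase-alone sites outside the TRIBE lists were in both at 79 of 384 (20.6%, 16.8 to 24.9%), with medians of 18.3% and 20.6%. TRIBE sites seen in 1 library, also without a deaminase-alone listing, were in both at 54.3% of 1936 positions. The positions that TRIBE and the deaminase alone shared were in both at 66 of 80 (82.5%, 72.7 to 89.3%) and in FMRP HyperTRIBE at 52 of 80 (65.0%, 54.1 to 74.5%). The reproducible sites had to be found in 2 libraries, whereas a deaminase-alone site needed 1, so these shares are not set against each other by a test. Hrp48 HyperTRIBE replicates 1 and 2 came from sets 02 and 03, the sets of TRIBE replicates 1 and 2. FMRP HyperTRIBE came from set 05, and the deaminase-alone libraries from 04 and 06. A shared library set thus cannot be told apart from a shared Hrp48 in these shares.

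**Figure D4:**
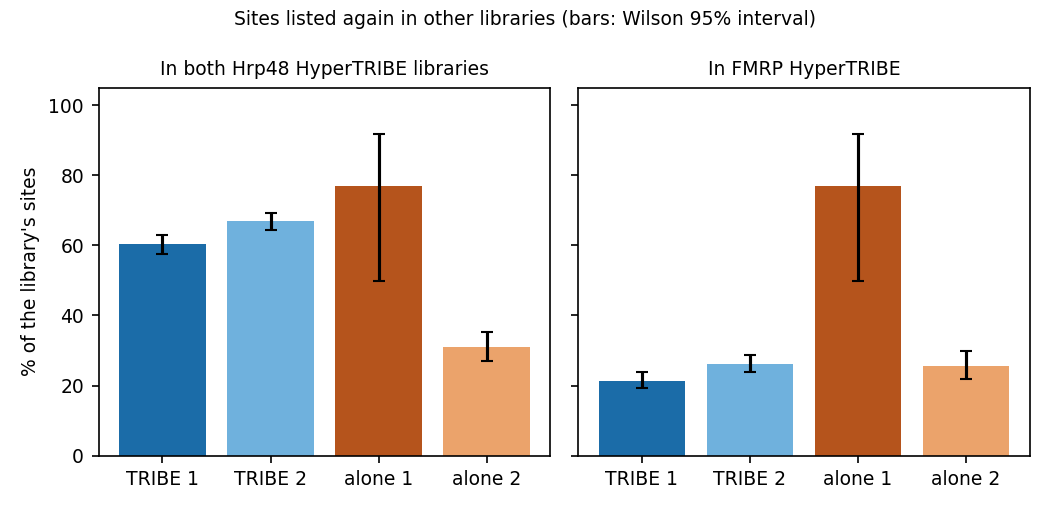
Share of each library's sites that both Hrp48 HyperTRIBE libraries listed (left) or that FMRP HyperTRIBE replicate 1 listed (right), in percent, with Wilson 95% intervals. Deaminase-alone replicate 2 is at 30.9% on the left, below TRIBE at 60.4% and 66.9%, and at 25.7% on the right, close to TRIBE at 21.4% and 26.2%; the wide interval of deaminase-alone replicate 1 comes from its 13 sites.

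For each gene list, genes were counted in which every TRIBE library exceeded every deaminase-alone library, which held for 21.6% of all genes with a site. These are counts of few genes with no test, and no list is shown to differ from that share. Among 11 hnRNP, SR and splicing genes with a site, 6 (54.5%) did. SF2 held 5 and 3 TRIBE sites against 0 and 2, Hrb98DE 4 and 3 against 0 and 0, SC35 3 and 3 against 0 and 1, and Hrb87F, another hnRNP A/B gene, 4 and 2 against 0 and 0. Another SR protein gene, x16, and a gene of the U1 snRNP, snRNP-U1-70K, held 2 and 1, and 1 and 1, TRIBE sites against none. The hnRNP gene sqd held 0 and 3 TRIBE sites and 0 and 2 with the deaminase alone, so its libraries overlapped. Hrb27C, which encodes Hrp48 itself, had 0 and 2 TRIBE sites and 0 and 0 with the deaminase alone, and Adar had 1 and 0 against 0 and 0. Reads of the cell's own transcripts and of a construct that carries the same sequence cannot be told apart in these files.

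Of 12 secretory pathway genes 5 (41.7%) had more TRIBE sites in every library, among them Rab1, a GTPase of transport between endoplasmic reticulum and Golgi, with 3 and 1 against 0 and 0, and Sec63, a translocon component, with 1 and 2 against 0 and 0. Of 10 chaperone genes 4 (40%) did, with Hsc70-5, the mitochondrial Hsp70, at 4 and 1 against 0 and 0. Of 9 glycolysis genes 3 (33.3%) did, Pgi with 3 and 3, Ald (aldolase) with 2 and 2, and Eno (enolase) with 1 and 2 TRIBE sites, all against 0 and 0. Of 11 genes of ion pumps and transporters 4 (36.4%) did, with VhaPPA1-1, a proton pump subunit gene, at 6 and 3 against 0 and 2. Of 6 mitochondrial genes 2 (33.3%) did, sesB (the ADP/ATP carrier) and ATPsyn-Cf6. Ribosomal protein genes stood at 2 of 17 (11.8%), among them RpS24 at 1 and 1 against 0 and 0. In that list TRIBE libraries held 16 and 6 sites and deaminase-alone libraries 0 and 15, and RpS29 held 2 and 1 TRIBE sites against 0 and 5. Translation factors stood at 1 of 10 (10%), eIF-5A, and eIF3-S8 held 1 and 1 against 0 and 3. The cytoskeleton and lamina list (2 of 10, Lam and Tm1) and the lists of cell cycle genes (2 of 8, Bub3 and geminin) and of proteasome and ubiquitin genes (2 of 9, Uba1 and Rpn11) were near the share of all genes. In every list the count of genes with more deaminase-alone sites in each library was 0, with replicate 1 of the deaminase alone included. The sites of that replicate fixed this count in advance, so it does not describe the lists.

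Markers of the cell line held sites with both constructs, 9 and 8 with TRIBE and 0 and 3 with the deaminase alone. Hemocyte and matrix genes with a site numbered 8 of 23 in the list, and srp, Hml, Pxn and NimC1 were not among them. More TRIBE sites in every library were found in 3, a share of 37.5%. These were Pvr, the receptor for Pvf2, with 3 and 1 against 0 and 0, crq, the scavenger receptor Croquemort, with 2 and 1 against 0 and 0, and Tig, a matrix protein gene, with 1 and 1 against 0 and 0. The collagen gene vkg had 0 and 0 TRIBE sites and 0 and 1 with the deaminase alone. Of 18 neuronal and 14 muscle and fat body markers, 0 had a site in any of the 4 libraries.

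**Figure D5:**
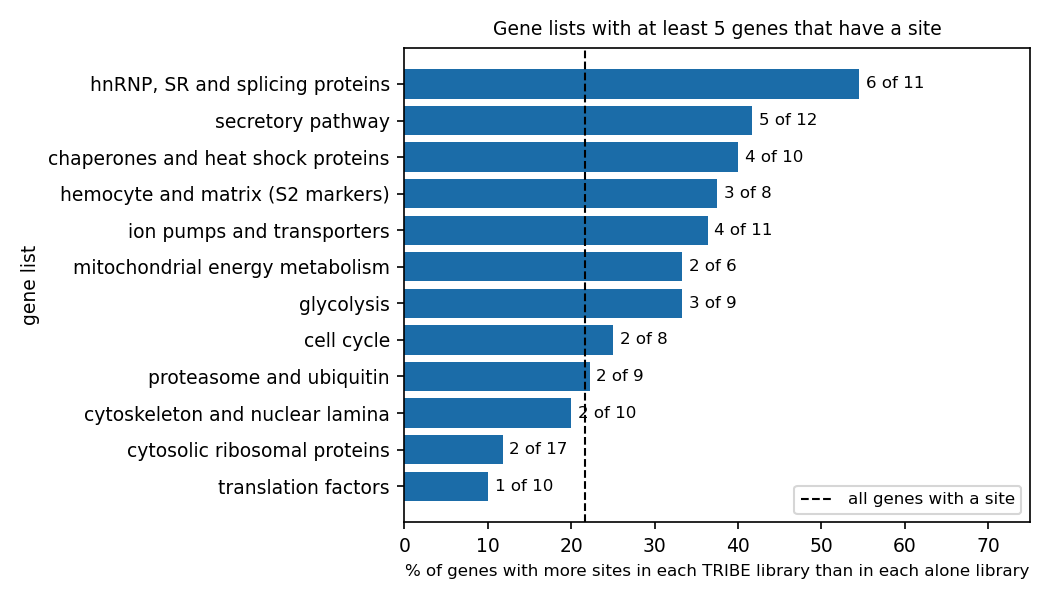
Percent of the genes with a site in each gene list for which each TRIBE library listed more sites than each deaminase-alone library, with the counts beside the bars; the dashed line marks the 21.6% of all 1432 genes. Splicing-related genes are highest at 6 of 11, and translation factors and ribosomal protein genes are lowest at 1 of 10 and 2 of 17.

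Sites lay almost entirely in exons with both constructs. Intronic sites numbered 3 of 1252 and 6 of 1400 with TRIBE, 0.2396% and 0.429%, and 0 of 13 and 2 of 459 with the deaminase alone, 0% (Wilson 95% interval 0 to 22.8%) and 0.436%. The share of sites on chromosome 4 was 0.639% and 3.93% with TRIBE, where replicate 2 listed 55 such sites and replicate 1 listed 8, and 0% and 0.871% with the deaminase alone. On the X chromosome the shares were 12.9% and 13.3% with TRIBE and 7.69% and 10.2% with the deaminase alone.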

How the data were processed

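The authors deposited, for each edited site, the read count of every base, the edited and total reads and the percent edited. The authors also deposited a score for each site, 10 times the percent edited, which was not used. Picard 2.8.2, TopHat2 2.1.1 and dm3 appear in the submitters' processing notes, with no role stated, and no source used here names a caller of sites. Across 52199 lines of 7 files no site had under 20 reads or 10% editing, and none over 149 reads, so reads are not expression levels. Precision is set by these reads per site. Editing was 100 times edited over total reads, and unlisted values stayed missing. Sites matched by position and strand; one in several genes counted once as a site and once per gene. Gene names were taken from the files. Of 1432 names, 1165 matched a current symbol and 242 an older one in the RefSeq Release 6 table, and 25 matched none. Numbers per library were compared by exact permutation tests, and editing by limma 3.58.1 in R 4.3.3 on log2((edited + 0.5)/(unedited + 0.5)), with Benjamini-Hochberg adjustment at 0.05. Sites had to be listed in at least 3 of 4 libraries. In simulated reads at the 25 real sites the test called 19.4% of sites changed by 2 log2 odds and 0.147% of unchanged sites. Differences of that size were thus mostly missed there. The simulated sites were not held to the 10% minimum of editing, so these rates are only a guide to the real test. Named genes were those with the most sites for each construct, in both deaminase-alone libraries, with the largest editing difference or most edited, up to 4 per list with most sites, and the construct genes. The members and lists were chosen with earlier results of these data known. The other tools were scipy 1.17.1, numpy 2.4.6, pandas 2.3.3 and matplotlib 3.10.9 in Python 3.11.15. Alternative minimums, pseudocounts, designs and libraries left out are given at the end.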

Additional observations from a re-analysis of the deposited data

How the results depend on the processing

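The fold in sites was 5.62, and between 5.995 and 6.58 at minimums of 30 or 50 reads or 15% or 20% editing; for genes it was 5.59, and between 6.05 and 7.76, with 7.42 for genes of at least 2 sites. Leaving out a library gave 2.89 to 102 for sites and 2.93 to 59.1 for genes. Of the reproducible TRIBE sites 6.69% were listed with the deaminase alone, 10.03% within 100 bases, 1.52% in both of its libraries, and 2.13% to 6.08% when 1 of these was left out; for genes 18.04%, and 2.75% to 17.3%. Without 1 library (chosen after seeing the data), 312 to 833 genes had more sites in each TRIBE library, against 310 with all 4, and 0 to 160 genes had more in each deaminase-alone library, against 0. Editing passed the test at 2 of 25 sites. It passed at 1 of 5 sites listed in all 4 libraries, at 0 of 80 with 1 library of each construct, at 3 of 11 with at least 30 reads, at 8 (6 higher with TRIBE, 2 lower) with the Hrp48 HyperTRIBE libraries in the fit, and at 5 (3 higher, 2 lower) by Fisher's exact test on reads pooled per construct, where spread between libraries does not enter. Leaving out 1 library gave 0 to 6 sites: 0 of 6 without TRIBE replicate 1, 2 of 7 without TRIBE replicate 2, 6 of 20 (4 higher, 2 lower) without deaminase-alone replicate 1 and 0 of 7 without replicate 2. Sites in fewer than 3 libraries drop out of these fits, and the SF2 and SC35 sites entered only the fit without deaminase-alone replicate 1. With a pseudocount of 1, and without sites at 90% or more (chosen after seeing the data), it stayed at 2. The replicate numbers name no shared batch, and a fit with them as a block passed at 0 of 5 sites. The SF2 and SC35 sites had a limma adjusted p of 0.0739 among the 80. The median difference of 0.02 log2 odds lay between -0.08 and 1.28 over the alternatives, with 1.12 at 30 reads or more. Called results kept their sign, but at 20% editing or more the uncalled difference in mean site counts, TRIBE minus deaminase alone, was 0.5 in place of -0.5 in Atpalpha and -2.5 in place of 0.5 in CycG. The cause of these differences was not tested. Few reads per site limit the editing comparison, and 2 libraries per construct limit the counts.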
